A study of Homo sapiens with 9 samples.

Results

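MMP17, WDFY1, PTPRF, MDK and WDR36 are the 5 genes with the largest rise shared by both knockdowns of a study of K562 cells, a human leukaemia line with erythroid features. They were chosen by their values in these same libraries. A gene had to be called up against control siRNA in both knockdowns, to average at least 5 CPM (reads per gene relative to library size) and to have every knockdown library above every control library, and the genes were then ranked by the smaller of their 2 log2 fold changes. Of 16752 genes tested in both comparisons, 325 were called up in both (1.94%), 310 of them met the CPM and separation limits, and these 5 stood at the top of that ranking. A further 6 genes called up in both would have ranked above the fifth but missed the CPM or the separation limit. The last genes inside the limit were MDK at 0.73 and WDR36 at 0.73 on the log2 scale, and the first outside were CDKN1A at 0.70 and HELZ2 at 0.68, so the edge of the set falls in a continuous series of values.

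The study compared K562 cells transfected with non-targeting siRNA (SCR), siRNA against DHX34 or siRNA against UPF1, with 3 poly(A) RNA libraries in each group. All were harvested on day 4 after transfection, the control libraries carry the treatment label WT, and all 9 come from the 1 cell line. The study used a pool of siRNAs for SCR and for DHX34, and within these 9 libraries each target has 1 siRNA treatment, so an effect of the target and an effect of the siRNA itself cannot be told apart. The study calls the libraries of a group biological replicates, and a p-value here sets a difference against the spread between them. It states that 3 of 4 biological replicas were sequenced.

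Nonsense-mediated decay (NMD) is the pathway that degrades transcripts whose translation stops early, typically well upstream of a spliced exon junction. UPF1 is its central RNA helicase, and DHX34 is a DEAH-box helicase that binds UPF1 and promotes the remodelling of the NMD complex. The 5 genes belong to different processes. MMP17 encodes a membrane-type matrix metalloproteinase held at the cell surface by a lipid anchor, PTPRF the receptor-type tyrosine phosphatase LAR, and MDK the secreted heparin-binding growth factor midkine. WDFY1 is a FYVE-domain protein of early endosomes that acts as an adaptor in Toll-like receptor signalling, and WDR36 is a subunit of the small subunit processome, the nucleolar assembly that matures the small ribosomal subunit.

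Library totals ran from 73478797 to 103625443 expected counts, the read counts that salmon assigns to transcripts. The targeted genes checked the labels: DHX34 went from 73.7 ± 1.11 CPM in SCR to 31.4 ± 2.32 in its knockdown, and UPF1 from 261.7 ± 8.13 to 105.6 ± 1.47 (SD, n = 3). All 16 erythroid markers listed averaged above 1 TPM (a relative abundance per transcript length) in every group, and their summed TPM was 34920 to 36290 in SCR, 31480 to 33300 with DHX34 siRNA and 21520 to 22170 with UPF1 siRNA. Of these markers 5 fell and 0 rose in the DHX34 knockdown, and 12 fell and 1 rose in the UPF1 knockdown. Of 13 megakaryocyte markers, GP9 and 2 others were at 0 in every library, and 7 were tested. Of these 7, 4 rose and 1 fell in the DHX34 knockdown, and 0 rose and 1 fell in the UPF1 knockdown. The 4 were THBS1, ITGA2B, ITGB3 and TUBB1, with log2 fold changes of 3.31, 1.915, 1.83 and 0.64 from SCR means of 0.13 to 2.21 TPM. The summed TPM of the 13 was 135.6 to 145.6, 119.8 to 130.4 and 127.8 to 144.1 in the 3 groups. Most of that sum was GP1BB, the marker that fell, at means of 130.9, 103.3 and 124.6 TPM. Of 16 markers of adherent epithelial cells, among them EPCAM and KRT19 at 72.3 and 94.5 TPM in SCR and CDH1 near 0 throughout, 8 were tested against SCR. Of these 8, 2 rose and 0 fell in the DHX34 knockdown, and 0 rose and 3 fell in the UPF1 knockdown. The summed TPM of the 16 was 201.3 to 202.7, 233.6 to 249.2 and 175.9 to 180.8. Over all genes tested 5.54% were called up and 4.86% down in the DHX34 knockdown, and 12.4% and 12.9% in the UPF1 knockdown. The part of such shifts in the values below was not tested, and in bulk RNA fewer cells of a type and less RNA per cell cannot be told apart.

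All 5 genes are protein-coding and lie on 5 different chromosomes (GRCh38 coordinates, GENCODE). MMP17 (ENSG00000198598) spans chromosome 12, 131828393 to 131851783, on the plus strand. WDFY1 (ENSG00000085449) spans chromosome 2, 223855716 to 223945357, on the minus strand. PTPRF (ENSG00000142949) spans chromosome 1, 43525187 to 43623666, MDK (ENSG00000110492) chromosome 11, 46380756 to 46383837, and WDR36 (ENSG00000134987) chromosome 5, 111092321 to 111130502, all on the plus strand. They had no common size or base composition. The TPM-weighted transcript length was 829 bases for MDK, 1430 for MMP17, 2948 for WDR36, 4167 for WDFY1 and 5703 for PTPRF, beside a median of 2083 over all genes tested and 4191 over the 325 called up in both. GC content ran from 37.05% in WDR36 and 42.2% in WDFY1 to 59.1% in PTPRF, 62.5% in MDK and 66.8% in MMP17, so that WDR36 sat at percentile 3.04 and MMP17 at percentile 98.4 of the genes tested.

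RefSeq promoter sequences (GRCh38.p14, 250 bases before to 50 after the annotated start) were found for WDFY1, PTPRF and WDR36, and not for MMP17 and MDK. They are shown because these genes rose together. Capitals mark matches on either strand to 7 short motifs, which are the Sp1 box GGGCGG, the CCAAT box, the TATA box TATAAA, the E-box CACGTG, the cyclic AMP response element TGACGTCA, the ETS core CCGGAAG and the GATA site AGATAA.
WDFY1, chr2:223945286-223945585, minus strand: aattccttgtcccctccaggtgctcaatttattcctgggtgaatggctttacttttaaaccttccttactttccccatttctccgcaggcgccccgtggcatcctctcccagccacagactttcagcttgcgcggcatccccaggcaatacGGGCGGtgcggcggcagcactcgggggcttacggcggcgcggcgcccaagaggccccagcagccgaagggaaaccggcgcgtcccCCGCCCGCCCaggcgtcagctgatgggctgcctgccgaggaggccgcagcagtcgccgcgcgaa
PTPRF, chr1:43530633-43530932, plus strand: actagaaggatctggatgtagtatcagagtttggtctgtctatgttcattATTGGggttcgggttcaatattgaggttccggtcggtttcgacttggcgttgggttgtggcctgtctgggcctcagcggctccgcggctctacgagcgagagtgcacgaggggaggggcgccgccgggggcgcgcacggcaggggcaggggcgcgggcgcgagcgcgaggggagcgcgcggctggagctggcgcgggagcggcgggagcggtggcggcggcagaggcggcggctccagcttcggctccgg
WDR36, chr5:111092098-111092397, plus strand: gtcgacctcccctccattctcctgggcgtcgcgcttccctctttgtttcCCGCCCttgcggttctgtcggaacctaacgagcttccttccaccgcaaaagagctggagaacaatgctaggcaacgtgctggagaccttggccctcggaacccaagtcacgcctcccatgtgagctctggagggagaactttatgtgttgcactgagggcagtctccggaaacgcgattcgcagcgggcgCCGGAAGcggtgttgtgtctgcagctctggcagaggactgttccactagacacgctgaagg
The GC content of these windows was 65.3% in WDFY1, 68.7% in PTPRF and 59.3% in WDR36, with 28, 37 and 21 CpG dinucleotides, beside medians of 58.7% and 14 over 35116 promoters of the same length. The Sp1 box occurred in 2 of the 3 windows, WDFY1 with 3 matches of which a pair overlap and WDR36 with 1, and it occurs in 44.95% of all promoters. The CCAAT box, spelled CCAAT, was matched once, in PTPRF (34.6% of all promoters), and the ETS core once, in WDR36 (10.3%). The TATA box (11.5%), the E-box (7.26%), the cyclic AMP response element (1.85%) and the GATA site (10.3%) had 0 matches in these 3 windows. A match is only a description of the letters, and the PTPRF window starts inside the gene as GENCODE draws it.

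MDK was by far the most abundant of the 5 per length. In SCR it stood at 289.9 ± 5.49 TPM, followed by WDR36 at 6.53 ± 0.611, WDFY1 at 5.66 ± 0.0333, MMP17 at 5.62 ± 0.720 and PTPRF at 1.07 ± 0.406 (SD, n = 3). The SCR libraries of MMP17 overlap those of WDR36 and span those of WDFY1, whereas every WDR36 library lies above every WDFY1 library. In the DHX34 knockdown the order was MDK at 623.2 ± 9.15 TPM, WDR36 at 12.6 ± 0.505, MMP17 at 11.3 ± 1.13, WDFY1 at 11.1 ± 1.77 and PTPRF at 1.31 ± 0.0993. In the UPF1 knockdown it was MDK at 549.9 ± 27.3 TPM, MMP17 at 14.04 ± 1.42, WDR36 at 13.1 ± 0.689, WDFY1 at 12.2 ± 0.289 and PTPRF at 1.400 ± 0.157. MMP17, WDR36 and WDFY1 all overlapped one another in both knockdowns, with MDK above and PTPRF below them in every library.

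**Figure D1:**
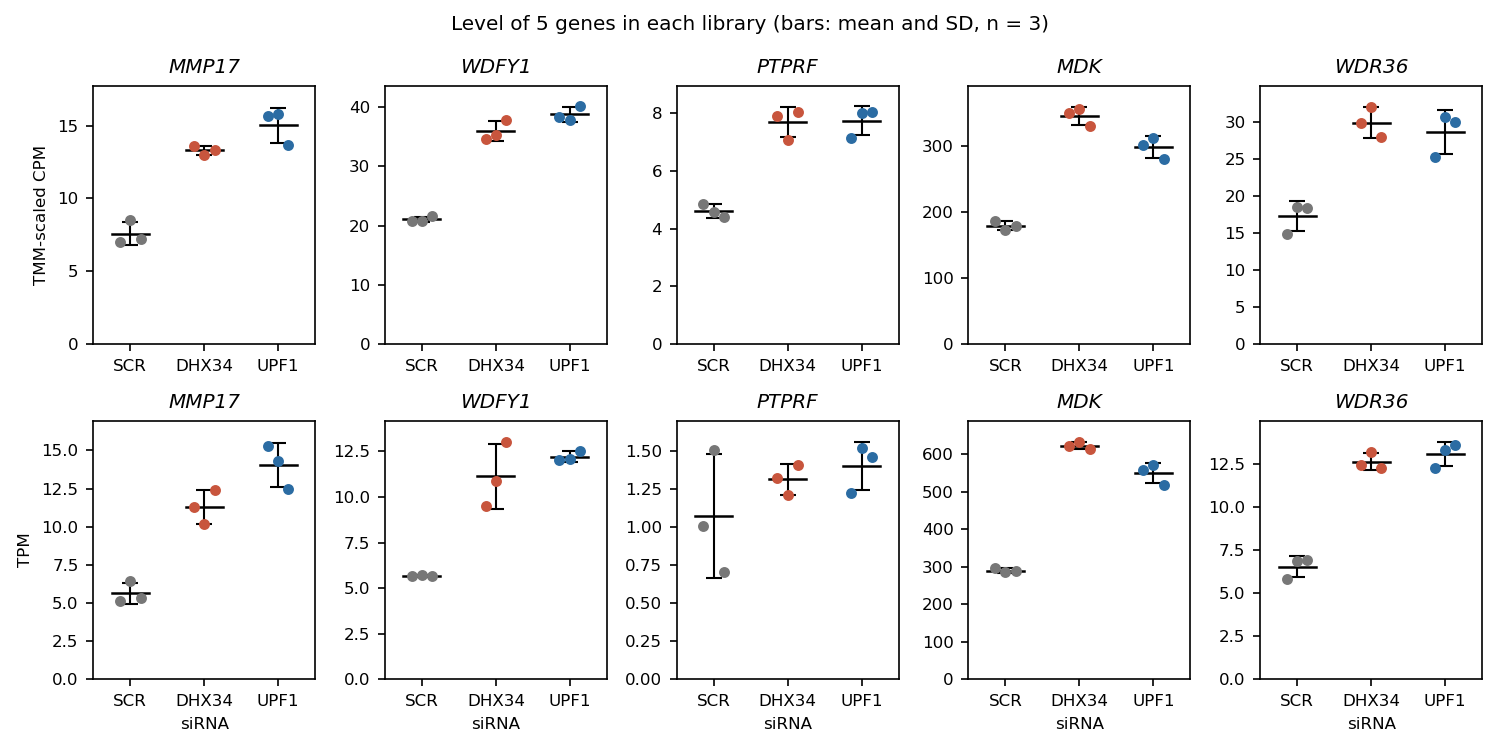
Level of each gene in each of the 9 libraries, as TMM-scaled CPM (top) and TPM (bottom), with points for libraries and bars for the mean and SD of 3. On the CPM scale every knockdown library lies above every SCR library, as the choice of the genes required. For PTPRF on the TPM scale the SCR libraries span 0.703 to 1.51 and overlap both knockdowns.

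In what follows CPM values are scaled by TMM factors, and the log2 fold changes against SCR are edgeR estimates given as a description with no test, because these contrasts chose the genes. The choice also required every knockdown library above every SCR library in CPM, so the separations from SCR below restate it. Across all genes 942 of 17004 were called up in the DHX34 knockdown (5.54%) and 2131 of 17184 in the UPF1 knockdown (12.4%), at an adjusted p of at most 0.005. The 5 genes ranked 120 to 193 by size of rise among those called up by DHX34 siRNA and 272 to 460 by UPF1 siRNA. They are the largest shared rises, not the largest rises of either knockdown.

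The genes of the cell-surface and secreted proteins come first. MMP17 was at 7.01, 8.504 and 7.23 CPM in the SCR libraries, 13.6, 13.0 and 13.3 with DHX34 siRNA and 15.6, 15.8 and 13.6 with UPF1 siRNA. Both knockdowns lie above SCR, as the choice required, and they meet each other near the same value. The log2 fold change was 0.81 (SE 0.09) with DHX34 siRNA and 0.98 (SE 0.09) with UPF1 siRNA, or 1.75-fold and 1.97-fold, from 491 to 1498 expected counts a library.

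MDK was at 186.5, 173.1 and 178.8 CPM in SCR, 350.2, 355.9 and 329.8 with DHX34 siRNA and 301.6, 312.3 and 280.4 with UPF1 siRNA. Here the 3 groups form 3 separate bands, with the DHX34 knockdown highest. The log2 fold change was 0.95 (SE 0.04) with DHX34 siRNA and 0.73 (SE 0.04) with UPF1 siRNA, or 1.93-fold and 1.65-fold. At 12143 to 34873 expected counts a library it was the most deeply counted of the 5.

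PTPRF was at 4.86, 4.57 and 4.39 CPM in SCR, 7.89, 7.08 and 8.04 with DHX34 siRNA and 7.14, 7.996 and 8.03 with UPF1 siRNA. The knockdown libraries share one range, which lies above SCR as the choice required. The log2 fold change was 0.74 (SE 0.10) with DHX34 siRNA and 0.74 (SE 0.09) with UPF1 siRNA, from 321 to 836 expected counts a library, the fewest of the 5.

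The RNAs that encode the endosomal and nucleolar proteins rose by like amounts. WDFY1 was at 20.7, 20.9 and 21.6 CPM in SCR, 34.6, 35.3 and 37.8 with DHX34 siRNA and 38.4, 37.7 and 40.1 with UPF1 siRNA. Its SCR libraries are the tightest of the set, and the highest DHX34 knockdown library only just reaches the lowest UPF1 knockdown library. The log2 fold change was 0.77 (SE 0.05) with DHX34 siRNA and 0.87 (SE 0.04) with UPF1 siRNA.

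WDR36 was at 15.0, 18.6 and 18.4 CPM in SCR, 29.9, 32.1 and 28.0 with DHX34 siRNA and 25.3, 30.7 and 30.1 with UPF1 siRNA. The first SCR library is the low one, and the highest SCR library lies under the lowest knockdown library, as the choice required. The log2 fold change was 0.79 (SE 0.08) with DHX34 siRNA and 0.73 (SE 0.09) with UPF1 siRNA.

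The TPM scale corrects for the lengths of the transcripts that salmon assigned, and on it 4 of the 5 genes kept every knockdown library above every SCR library. Separation in CPM was part of the choice, and the share of all genes separated on TPM was not computed, so this is a description. MMP17 was at 5.11, 6.44 and 5.29 TPM in SCR, 11.3, 10.2 and 12.4 with DHX34 siRNA and 15.3, 14.3 and 12.5 with UPF1 siRNA. WDFY1 was at 5.64, 5.70 and 5.64 TPM in SCR, 9.50, 10.9 and 13.0 with DHX34 siRNA and 12.02, 12.1 and 12.6 with UPF1 siRNA. These genes kept the order of groups they had in CPM, although the third DHX34 knockdown library now holds the highest WDFY1 value. MDK was at 296.2, 286.0 and 287.6 TPM in SCR, 621.3, 633.2 and 615.2 with DHX34 siRNA and 557.4, 572.7 and 519.6 with UPF1 siRNA. WDR36 was at 5.83, 6.86 and 6.91 TPM in SCR, 12.4, 13.2 and 12.3 with DHX34 siRNA and 12.3, 13.3 and 13.6 with UPF1 siRNA. MDK again formed 3 bands, and the knockdowns overlapped for WDR36. PTPRF was the exception, at 1.01, 1.51 and 0.703 TPM in SCR, 1.32, 1.21 and 1.41 with DHX34 siRNA and 1.22, 1.52 and 1.46 with UPF1 siRNA, with the second SCR library as high as any but one knockdown library.

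On log2(TPM + 0.5) the median of all genes itself lay 0.16 above SCR in the DHX34 knockdown and 0.21 above it in the UPF1 knockdown, so TPM differences are given relative to that shift. MDK then differed by 0.94 and 0.72, MMP17 by 0.79 and 1.04, WDFY1 by 0.74 and 0.84, and WDR36 by 0.74 and 0.74 in the DHX34 and UPF1 knockdowns. PTPRF differed by 0.07 and 0.10. With counts rescaled by transcript length its log2 fold change was 0.13 and 0.18, and with the trends of each library with gene length and GC content removed it was 0.46 and 0.63, against 0.74 and 0.74 on the counts as deposited. PTPRF was thus separated from SCR in counted reads and overlapped it in length-corrected abundance, and its call against SCR was lost on length-scaled counts and on TPM.

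**Figure D2:**
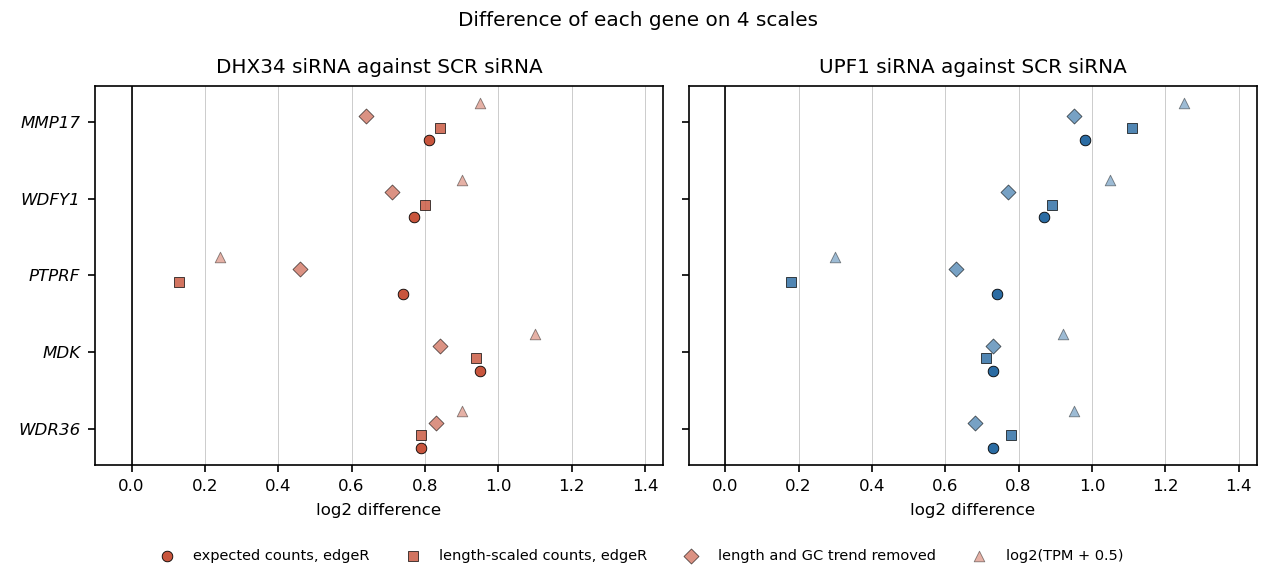
Log2 difference of each gene from SCR on 4 scales (circles, expected counts; squares, length-scaled counts; diamonds, length and GC trends removed; triangles, log2(TPM + 0.5), not corrected for the shift of all genes), in the DHX34 knockdown (left) and the UPF1 knockdown (right). MMP17, WDFY1, MDK and WDR36 stay between 0.64 and 1.25 on these scales, and PTPRF falls to 0.13 and 0.18 on length-scaled counts.

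The transcripts behind PTPRF show where its scales part. The tables hold 16 PTPRF transcripts, and their TPM-weighted effective length was 4548 bases in SCR, 6310 with DHX34 siRNA and 6197 with UPF1 siRNA. PTPRF-201, whose deposited length is 7727 bases, was at 0, 0 and 0.133 TPM in the SCR libraries, at 0.164, 0.363 and 0.516 with DHX34 siRNA and at 0.579, 0.455 and 0.459 with UPF1 siRNA. PTPRF-203, a coding transcript of 4600 bases, was at 0.527, 0.347 and 0 TPM in SCR, at 0, 0 and 0.0338 in the DHX34 knockdown and at 0 in all 3 UPF1 knockdown libraries. PTPRF-209, a coding transcript of 6377 bases, was at 0.318, 0.298 and 0.203 TPM in SCR, at 0.711, 0.448 and 0.411 with DHX34 siRNA and at 0.127, 0.464 and 0.296 with UPF1 siRNA, which made it the most abundant with DHX34 siRNA, at 40.03% of the TPM of the gene. PTPRF-201 was thus listed in all 6 knockdown libraries and 1 SCR library, PTPRF-203 mostly in 2 SCR libraries, and PTPRF-209 in all 9. PTPRF-214, a fragment of 415 bases with no coding sequence, was at 0.614 TPM in the second SCR library and at 0 in the other 8, and that library alone made the highest SCR value of the gene. The coding transcripts together stood at 0.710 ± 0.169 TPM in SCR, 1.17 ± 0.103 with DHX34 siRNA and 1.05 ± 0.116 with UPF1 siRNA (SD, n = 3), or 1.64-fold and 1.48-fold SCR. Those without a coding sequence were at 0.362 ± 0.331, 0.146 ± 0.0917 and 0.351 ± 0.142. At these counts an assignment among similar transcripts is uncertain, and salmon's assignment and a change in RNA cannot be told apart here.

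MMP17 is the only one of the 5 with a sizeable share in transcripts annotated as NMD substrates. Its 9 transcripts include MMP17-201, which encodes the full protein, 3 annotated as NMD substrates and 4 with a retained intron. MMP17-203, in the NMD-annotated class, has a deposited length of 719 bases against 1870 in GENCODE, so its biotype comes from a longer model. It averaged 0.482 TPM in SCR, 1.40 with DHX34 siRNA and 1.22 with UPF1 siRNA. Coding transcripts went from 2.57 ± 0.317 TPM in SCR to 4.83 ± 0.0739 with DHX34 siRNA and 5.42 ± 0.389 with UPF1 siRNA (SD, n = 3). NMD-annotated transcripts went from 0.991 ± 0.273 TPM to 2.18 ± 0.468 and 2.93 ± 0.845, and retained-intron transcripts from 2.05 ± 0.468 to 4.29 ± 0.613 and 5.69 ± 0.585. All 3 classes were higher in both knockdowns, by 1.88-fold, 2.20-fold and 2.09-fold with DHX34 siRNA and by 2.11-fold, 2.96-fold and 2.77-fold with UPF1 siRNA. The coding share was 45.8% ± 0.226, 42.99% ± 3.70 and 38.7% ± 2.62 in the 3 groups, and the NMD-annotated share 17.8% ± 5.60, 19.2% ± 2.38 and 20.7% ± 4.40, whose libraries overlap.

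The stop codons of MMP17-201 and of MMP17-208 (775 bases, annotated as an NMD substrate) are shown with that of MDK-209, the NMD-annotated transcript of MDK, because a stop codon upstream of exon junctions is the feature that NMD reads. Each line holds 15 bases before the stop codon, the stop codon in capitals and 12 bases after it, from GENCODE transcripts whose length equals that in the deposited tables.
MMP17-201: caggccctgacgctaTGAcacacagcgcga
MMP17-208: aggccaccctggcccTGAtgaaaaccccac
MDK-209: ccccccccccgcctgTGAggggacaattcc
All 3 stop at TGA. In MMP17-201 it lies at chromosome 12, 131851272 to 131851274, after 603 codons and with 0 exon junctions downstream. In MMP17-208 it lies at chromosome 12, 131838630 to 131838632, after 59 codons, with 2 junctions downstream and the last of them 393 bases away. In MDK-209 it lies at chromosome 11, 46382811 to 46382813, after 156 codons, with 1 junction downstream, 380 bases away. MMP17-208 was at 0.646, 0.362 and 0.519 TPM in SCR, 0.947, 0.607 and 0.809 with DHX34 siRNA and 2.38, 1.26 and 1.501 with UPF1 siRNA. Its UPF1 knockdown libraries all lie above its other 6 libraries, while SCR and the DHX34 knockdown overlap. MMP17-201 was at 2.23, 2.66 and 2.30 TPM in SCR, 4.71, 4.42 and 4.03 with DHX34 siRNA and 4.77, 5.76 and 4.85 with UPF1 siRNA, with both knockdowns clear of SCR. MDK-209 held 0.529% ± 0.0561 of the MDK TPM in SCR, 0.529% ± 0.122 with DHX34 siRNA and 0.569% ± 0.0466 with UPF1 siRNA, and these shares overlap between all 3 groups.

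The other genes were carried by a single coding transcript each. MDK-203 held 91.9% of the MDK TPM with DHX34 siRNA and 91.8% with UPF1 siRNA, WDFY1-201 held 87.7% and 87.8% of that of WDFY1, and WDR36-203 held 94.0% and 89.3% of that of WDR36. MDK-203 was at 266.0 TPM in SCR, 573.0 with DHX34 siRNA and 504.9 with UPF1 siRNA on average, WDFY1-201 at 5.03, 9.66 and 10.7, and WDR36-203 at 6.18, 11.9 and 11.7. Within MDK the coding, NMD-annotated and retained-intron transcripts were higher by 2.15-fold, 2.14-fold and 2.13-fold with DHX34 siRNA and by 1.90-fold, 2.04-fold and 1.91-fold with UPF1 siRNA. The transcript of MDK with no defined coding sequence, at 1.04 TPM in SCR, was higher by 1.49-fold and 2.15-fold. The retained-intron transcripts of WDR36 had 0.348 ± 0.307, 0.755 ± 0.210 and 1.38 ± 0.652 TPM in the 3 groups.

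**Figure D3:**
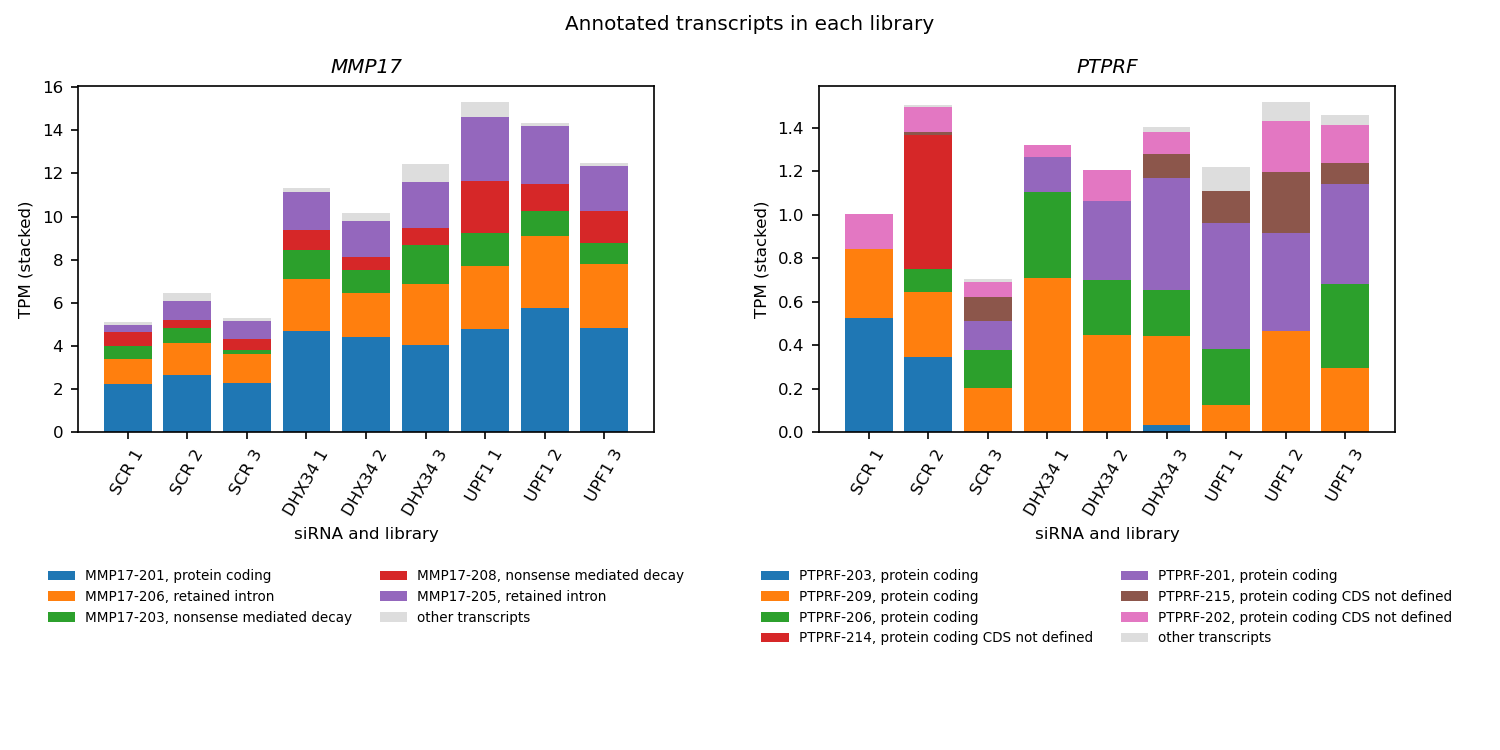
TPM of the annotated transcripts of MMP17 (left) and PTPRF (right), stacked for each of the 9 libraries, with colours for transcripts that reach 10% of the gene in some group and grey for the rest. In MMP17 every coloured layer is taller on average in both knockdowns, whereas in PTPRF the makeup changes from library to library and PTPRF-214 appears in the second SCR library only.

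The gap between the 2 knockdowns was small for these genes, which their choice favours. Ranking by the smaller of the 2 log2 fold changes places genes with like rises ahead of others, so the differences between the knockdowns are given as a description with no test. Over all 17435 genes in edgeR's quasi-likelihood test with Benjamini-Hochberg adjustment, 1724 were higher with UPF1 siRNA (9.89%) and 1302 were higher with DHX34 siRNA (7.47%). MDK had the widest gap of the 5, with a log2 difference of UPF1 minus DHX34 siRNA of -0.20 (SE 0.04), and its 3 UPF1 knockdown libraries all lie below its 3 DHX34 knockdown libraries. MMP17 differed by 0.19 (SE 0.07) and WDFY1 by 0.12 (SE 0.05), both higher with UPF1 siRNA. With length and GC trends removed the difference of MMP17 was 0.34. PTPRF differed by 0.02 (SE 0.08) and WDR36 by -0.05 (SE 0.07), with libraries that overlap. Of the 325 genes called up in both knockdowns, which share this kind of choice, 22 were higher with UPF1 siRNA and 35 with DHX34 siRNA, and the median difference was -0.03.

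The makeup of a gene in transcripts was no part of the choice of the 5 genes. The 15 transcripts compared, however, were those with at least 10% of a gene's mean TPM in some group. Their shares in the 2 knockdowns are therefore given as a description with no test. MMP17-208 went from 6.95% with DHX34 siRNA to 12.1% with UPF1 siRNA and MMP17-203, also annotated as an NMD substrate, from 12.2% to 8.60%. Each reached 10% only in the knockdown where its share was the higher. Single transcripts were called between the knockdowns in 677 of 64325 cases by edgeR (1.05%), and of the 47 transcripts of the 5 genes 27 were in that fit.

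Genes that work with each of the 5 were examined from lists of their pathways, as counts called in each direction beside the median log2 fold change. That median was 0.02 over all genes against SCR in each knockdown. With DHX34 siRNA 942 genes were called up (5.54%) and 826 down (4.86%), and with UPF1 siRNA 2131 up (12.4%) and 2214 down (12.9%).

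Few genes of the complex that WDR36 belongs to rose with it. Of 36 other genes of the small subunit processome tested, 0 rose and 6 fell with DHX34 siRNA (median -0.09), and 1 rose and 20 fell with UPF1 siRNA (median -0.16). The falls were small apart from DHX37, the RNA helicase that releases the U3 snoRNA, at -1.53 and -1.27. With DHX34 siRNA the call on DHX37 held in 2 of 6 fits with a library left out, and its SCR libraries spread widely (78.8 ± 20.5 CPM). RRP9, a U3 snoRNP protein, fell by 0.30 and 0.42, and fibrillarin (FBL), the methyltransferase of box C/D snoRNPs, fell by 0.27 and 0.31. IMP3, which joins U3 to the pre-rRNA, fell by 0.36 with UPF1 siRNA, where PDCD11, an RNA-binding assembly factor, was the 1 gene that rose, by 0.22. With DHX34 siRNA the count of falls was 3 without any of the SCR libraries or without the first DHX34 library, 4 without the second and 6 without the third. On log2(TPM + 0.5) 0 of these genes were called in either direction with DHX34 siRNA, and with UPF1 siRNA 6 rose and 2 fell, with list medians of 0.09 and 0.07 beside 0.16 and 0.21 over all genes. The shares of all genes called in each direction on that scale are not given here, so these counts alone say little about the list.

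WDR36 sits in the UTP-B subcomplex with PWP2, TBL3, WDR3, UTP18 and UTP6. In counts 4 of these 5 partners fell with UPF1 siRNA, PWP2 by 0.24, WDR3 by 0.23, UTP18 by 0.24 and UTP6 by 0.18, and these calls held in all 6 fits with a library left out. With DHX34 siRNA 0 of 5 were called, with log2 fold changes from -0.16 to 0.00. On log2(TPM + 0.5) WDR3 and UTP6 lay 0.16 and 0.04 above SCR in the UPF1 knockdown, both under the 0.21 of the median gene. Per length WDR36 was scarce beside its partners. Its TPM was 10.5%, 12.7% and 11.9% of their median in the SCR libraries, 21.4%, 22.6% and 19.5% with DHX34 siRNA and 21.9%, 22.8% and 24.1% with UPF1 siRNA, so its RNA came closer to theirs without reaching it.

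The relatives of PTPRF gave mixed calls. Of 11 tested genes among LAR-type phosphatases, their ligands and liprins, 3 rose and 0 fell with DHX34 siRNA (median 0.13), and 2 rose and 1 fell with UPF1 siRNA (median 0.29). On length-scaled counts 0 rose and 1 fell with UPF1 siRNA (median 0.05), and with length and GC trends removed 3 rose with DHX34 siRNA at a median of -0.04 beside -0.03 over all genes. PTPRS, another LAR-type phosphatase, went from 23.6 ± 1.82 CPM in SCR to 36.9 ± 1.19 and 29.7 ± 0.907 (SD, n = 3), a rise of 0.65 and of 0.33 on the log2 scale. The call with UPF1 siRNA was lost without the first or the second UPF1 library. CTNNB1, the β-catenin that LAR binds at cell junctions, rose by 0.44 and 0.29. LRRC4B, a synaptic ligand of LAR-type phosphatases, went opposite ways, from 5.51 ± 0.478 CPM to 11.8 ± 0.393 with DHX34 siRNA and to 3.19 ± 0.589 with UPF1 siRNA, or 1.10 and -0.80 on the log2 scale. Between the knockdowns LRRC4B, PTPRS and PPFIA3, a liprin, were lower with UPF1 siRNA by 1.88, 0.30 and 0.23, and 0 were higher. The call on PPFIA3 held in 2 of 6 fits with a library left out.

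The relatives of MDK gave few calls. Of 11 tested genes of the midkine and pleiotrophin pathway, 2 rose with DHX34 siRNA and 1 fell with UPF1 siRNA, with medians of 0.40 and 0.11. LTK, a receptor kinase related to the midkine receptor ALK, rose by 0.98 with DHX34 siRNA, a call lost without the first or the third SCR library. SDC3, a heparan sulfate proteoglycan that binds midkine, rose by 0.40 there and was lower by 0.40 with UPF1 than with DHX34 siRNA. Nucleolin (NCL), reported at the cell surface as a midkine-binding protein, fell by 0.22 with UPF1 siRNA.

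Of the matrix metalloproteinases and their inhibitors related to MMP17, 11 of 27 were tested with DHX34 siRNA and 10 with UPF1 siRNA, since most are at or near 0 in these cells. With DHX34 siRNA 0 passed by edgeR (1 fell by DESeq2), with a median of 0.38 over these 11, only 2 of which averaged at least 1 TPM. With UPF1 siRNA 2 fell and 0 rose. TIMP1, a secreted inhibitor of metalloproteinases, fell from 158.3 ± 5.66 to 102.0 ± 6.08 CPM (SD, n = 3), by 0.64 on the log2 scale, and MMP15, another membrane-type enzyme, fell by 0.19, a call that held in 3 of 6 fits with a library left out. Both were also lower with UPF1 than with DHX34 siRNA, TIMP1 by 0.43 and MMP15 by 0.23, the latter a call that held in 1 of 6 such fits.

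Of 24 tested FYVE-domain and endosomal Toll-like receptor genes related to WDFY1, 1 rose with DHX34 siRNA (median 0.14), and 3 rose and 3 fell with UPF1 siRNA (median 0.10). These counts lie near the shares over all genes, 5.54% up with DHX34 siRNA and 12.4% up and 12.9% down with UPF1 siRNA. ZFYVE26, a FYVE protein of late endosomes and lysosome reformation, rose by 0.43 and 0.33, the first a call that held in 2 of 6 fits with a library left out. WDFY2, the nearest paralog of WDFY1, rose by 0.34 with UPF1 siRNA and was higher there than with DHX34 siRNA by 0.43. EEA1, the early endosome tether, rose by 0.24, and ZFYVE21, PLEKHF2 and the Toll-like receptor adaptor TICAM1 fell by 0.35, 0.27 and 0.26. The calls on EEA1 and TICAM1 held in 1 and 2 of 6 fits with a library left out. Without any one of the UPF1 libraries the count of rises was 2, and with length-scaled counts 0 rose and 1 fell.

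**Figure D4:**
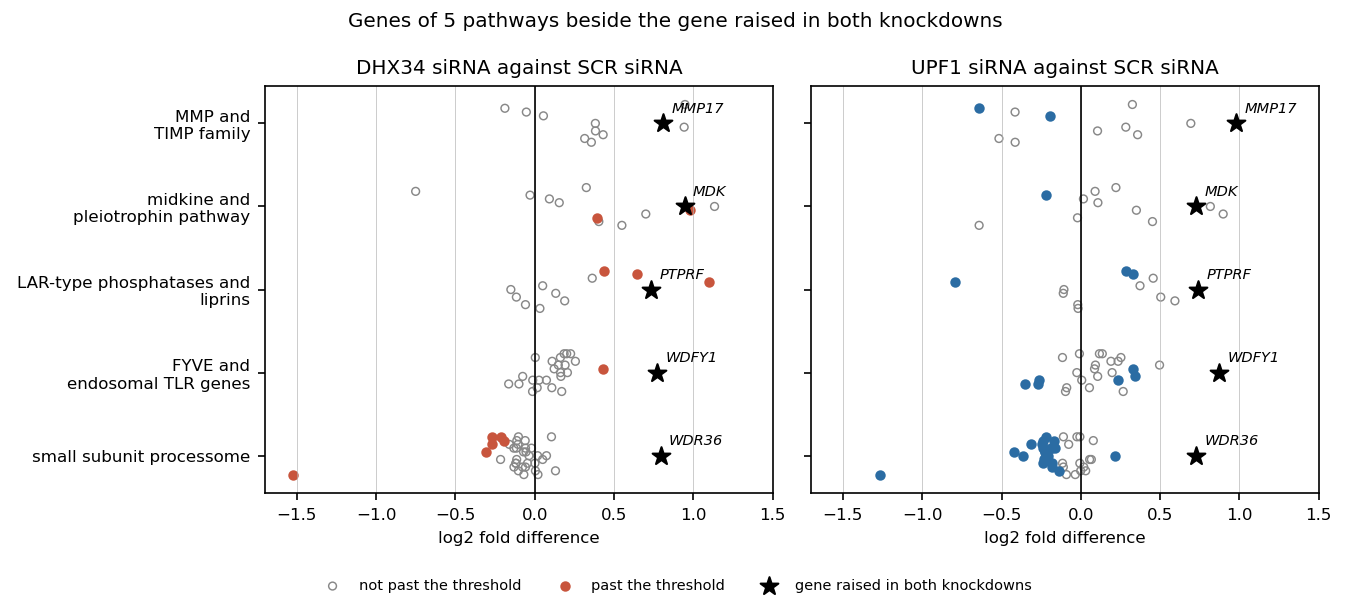
Log2 fold change of each tested gene of the 5 pathway lists in the DHX34 knockdown (left) and the UPF1 knockdown (right), with filled points past an adjusted p of 0.005 and stars for the 5 genes raised in both. WDR36 stands at 0.79 and 0.73, apart from small subunit processome genes that lie at or below 0.22.

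Among protein-coding genes next to the members on the chromosome, KDM4A beside PTPRF fell by 0.21 on the log2 scale with DHX34 siRNA and rose by 0.26 with UPF1 siRNA, and SFSWAP near MMP17 rose by 0.22 with DHX34 siRNA. DGKZ ends 202 bases before MDK on the same strand and was at 0.05 and -0.11. CHRM4 overlaps MDK on the other strand at 0.639 CPM in SCR against 179.5 for MDK. Whether the libraries keep the strand is not given in the sources used here, so reads from the overlap could belong to either gene.

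The genes whose profile over the 9 libraries was most like each of the 5 were named by Pearson's r of log2 CPM among 10059 genes of at least 5 CPM. This is a description, since the 9 libraries fall into 3 groups and r mostly restates the group means. SUN2, a nuclear envelope protein, was most like MMP17 (r = 0.989), followed by the kinase SIK2 (0.985) and EMC1 of the membrane protein insertion complex (0.984). For WDFY1 they were RNF24 (0.993), the sphingomyelinase SMPD4 (0.992) and UAP1L1 (0.991). For PTPRF they were the long noncoding RNA ENSG00000267002 (0.986), PITPNM1 (0.983) and HIP1 (0.979). For MDK they were QPRT of NAD synthesis (0.991), the mitotic kinase MASTL (0.989) and ARHGAP18 (0.989), and for WDR36 the kinesin KIF1B (0.990), DOCK8 (0.981) and GNPTAB (0.980). Their changes were smaller than those of the 5 genes, from 0.15 for EMC1 to 0.56 for HIP1 with DHX34 siRNA. Between the 5 genes themselves r ran from 0.901 for MMP17 and MDK to 0.970 for WDFY1 and PTPRF.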

How the data were processed

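Poly(A) RNA libraries of 9 siRNA-treated K562 cultures were used, grouped by their labels. The authors quantified reads with salmon, with its correction for GC bias, against coding and noncoding cDNA of Ensembl release 93 on GRCh38. The deposited tables give the expected count (an estimated count that need not be whole) and the TPM of each of 203027 transcripts. The deposited sleuth tables (p-values, q-values and effects) and SUPPA2 tables (splicing differences) hold the authors' own comparisons and were not used. GENCODE release 44 was matched to the transcripts by identifier (97.9% matched, 98.1% of counts). Of matched transcripts 85.8% had the same length, and coding lengths, exon junctions and stop codons were read only for those. Biotype and GC content were taken for every matched transcript. MMP17-203, WDFY1-201, MDK-203 and WDR36-203 are among those classed by biotype although their lengths differ.

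Expected counts were summed per gene, rounded and tested with edgeR 4.0.16 in R 4.3.3 (quasi-likelihood, TMM, filterByExpr with a minimum count of 10, the 6 libraries of each comparison), with calls made where the Benjamini-Hochberg adjusted p reached 0.005 or less. The same fit was run on single transcripts. TPM was tested with limma 3.58.1 on log2(TPM + 0.5) for genes averaging at least 1 TPM. Isoform shares are given as a description. On simulated counts for UPF1 against DHX34 siRNA over 17435 genes the fit called 87% of 2-fold changes with 6 false calls. Over 64325 transcripts it called 2%, so the transcript test had little power in that simulation. Only 100 transcripts were changed at each size there, drawn across most of the abundance range, whereas 677 were called in the data. The 2% is therefore no measure for well-counted transcripts such as MDK-203.

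The 5 genes, the pathway lists and the marker lists were chosen with earlier results of these data known. Named genes were the 5, the genes ranked on either side of the limit, up to 3 called genes in each direction from each pathway list and comparison, 3 genes most like each of the 5 by r, and transcripts with at least 10% of a gene's mean TPM in a group. The UTP-B partners, MDK-209 and the chromosomal neighbours were chosen after their values were seen, and not every neighbour is reported here. Counts over genes and counting error limit precision, and the tables hold assigned reads, not molecules. Alternatives were DESeq2 1.42.0, upper quartile scaling, no filter, length-scaled counts, TPM with other pseudocounts, 9 libraries in 1 fit, each library left out, a block on replicate number, removal of length and GC trends, and an adjusted p of 0.05.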

Additional observations from a re-analysis of the deposited data

How the results depend on the processing

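The log2 fold change of every one of the 5 genes against SCR stayed above 0 in all alternatives, and with a library left out it stayed between 0.70 and 0.99 with DHX34 siRNA and between 0.63 and 1.07 with UPF1 siRNA. PTPRF was past the threshold in 12 of 18 alternatives with DHX34 siRNA and in 13 of 18 with UPF1 siRNA, falling short on length-scaled counts and on TPM in both and, with DHX34 siRNA, with trends removed and a block. MDK was past it in all 18 of each, and MMP17, WDFY1 and WDR36 in 17 with DHX34 siRNA and 18 with UPF1 siRNA. The genes were chosen for passing on these same contrasts and libraries, so these counts largely restate the choice and are a description. The cause of the shifts given here was not tested. On log2(TPM + 0.5), with or without its filter, MMP17 was at 0.95 and 1.25, WDFY1 at 0.90 and 1.05, and MDK at 1.10 and 0.92 in the DHX34 and UPF1 knockdowns, PTPRF at 0.24 and 0.30, and WDR36 at 0.95 in the latter. With a pseudocount of 0.1 these were 1.00 and 1.31, 0.95 and 1.10, 1.10 and 0.92, 0.32 and 0.41, and 0.94 and 0.99. With a pseudocount of 1, MMP17 was at 1.19 with UPF1 siRNA, WDFY1 at 0.85 and 0.99, MDK at 1.10 and 0.92, PTPRF at 0.18 and 0.23, and WDR36 at 0.90 with UPF1 siRNA. Without length and GC trends, with or without a replicate block, MMP17 was at 0.64 and MDK at 0.84 with DHX34 siRNA, WDFY1 at 0.71 and 0.77, and PTPRF at 0.46 and 0.63. Length-scaled counts put PTPRF at 0.13 and 0.18.

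The gaps between the knockdowns are a description, since the ranking favours small ones. MDK was at -0.21 with DESeq2, -0.23 with upper quartile factors, -0.21 with no filter or with 9 libraries in 1 fit, -0.20 with the replicate block, and from -0.25 to -0.16 with a library left out. MMP17 was at 0.34 without length and GC trends, with or without the block. PTPRF, near 0, changed sign with upper quartile factors (-0.01) and ran from -0.03 to 0.07 with a library left out. WDR36 changed sign on length-scaled counts (0.01) and on TPM (0.04 to 0.05), and ran from -0.11 to 0.03. Isoform share differences between the knockdowns that changed sign with a library left out ran, in percentage points, from -5.80 to 0.325 for MMP17-201, from -0.0839 to 2.06 for MMP17-206, from -3.78 to 4.77 for WDFY1-201, from -11.3 to 1.95 for PTPRF-206, from -1.75 to 6.05 for PTPRF-202 and from -0.30 to 0.0744 for MDK-203.

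Genes called with DHX34 siRNA numbered 3034 with DESeq2, 3396 without a filter, 771 on length-scaled counts, 1036, 1079 and 1017 on TPM with pseudocounts of 0.5, 0.1 and 1, 163 on unfiltered TPM, 1007 with the replicate block, 687 with block and trend removal, 4403 at an adjusted p of 0.05, and 781 (without the third SCR library) to 1785 with a library left out. With UPF1 siRNA they numbered 2807 on length-scaled counts, 2127 on unfiltered TPM and 6917 at 0.05. Between the knockdowns they numbered 1707 on length-scaled counts, 1509, 1513 and 1508 on TPM, 812 on unfiltered TPM, 5691 at 0.05, and 1915 (without the second UPF1 library) to 3865 with a library left out. Transcripts called numbered 4645 with DESeq2, 0 with the replicate block and 57 (without the first UPF1 library) to 345 with a library left out. Same-numbered libraries did not deviate together from their group means (r from -0.318 to 0.228 over 9 pairs). The labels do not say whether libraries with the same number share a day or a batch, and these correlations cannot decide it.

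Over the 5 pathway lists, counts are small and depend on the scale. The tables hold no read positions, the single-transcript test had little power in the simulation, and PTPRF rests on the fewest counts.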
